A study of Capra hircus with 6 samples.

Results

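The genes described here make, bind, or break down hyaluronan, a large sugar polymer of the extracellular matrix. The set holds 8 genes, chosen by name from the 15944 genes of the deposited count table. They are the synthase genes HAS1, HAS2, and HAS3, the precursor enzyme gene UGDH, the depolymerase gene CEMIP, the receptor genes CD44 and HMMR, and the binding protein gene TNFAIP6. Each had 1 row in the table, and all 8 passed the filter on low counts that left 12588 genes for testing. The cells were dermal papilla cells from secondary hair follicles (SHF-DPCs), cultured from the scapular skin of wild-type Albas cashmere goats (Capra hircus) aged 3 years. The control group (3 libraries) grew without all-trans retinoic acid (ATRA), the vitamin A metabolite that acts through the retinoic acid receptors. The ATRA-treated group (3 libraries) received 100 µM ATRA for 24 h, in a primary culture at passage 4 to 7 in medium with 10% serum. RNA-seq was used to ask how this single high concentration, at a single time, altered the transcripts of these cells.

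Hyaluronan is built at the plasma membrane by the HAS enzymes, which alternate glucuronic acid and N-acetylglucosamine taken from their UDP-activated forms. UGDH makes UDP-glucuronic acid, and the hexosamine pathway, which ends with UAP1, makes UDP-N-acetylglucosamine. Outside the cell the polymer is tethered by CD44, bound by proteoglycans such as versican and by link proteins, remodelled by TNFAIP6, and cut by CEMIP and the hyaluronidases. The hair follicle dermal papilla is known for a proteoglycan-rich matrix that changes with the hair cycle, with versican as a classical component.

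Library totals ranged from 35532339 to 38012771 counts, and levels are given as CPM, each count divided by the TMM-scaled library size and multiplied by 1e6. These are levels per gene and are not divided by transcript length, so they are compared between groups and not between genes. Log2 fold change (log2FC) is ATRA over control, compared by edgeR's quasi-likelihood test, two-sided. Its standard error (SE) was derived from that test, as the absolute log2FC divided by the square root of the F statistic. The adjustment of p-values, by Benjamini-Hochberg, covered all 12588 genes. The median log2FC of all tested genes was 0.04, and 0.52 where only library size was used for scaling. Of 5 tested genes known to respond to retinoids, 4 were higher with ATRA, against 40.9% of all tested genes. These 4 included CYP26B1, which clears ATRA and was matched by its annotated symbol (log2FC 5.46), and DHRS3 (log2FC 7.02). STRA6 overlapped between the groups (log2FC 0.68, SE 0.547, adjusted p = 0.262, edgeR). CYP26A1 held 3 counts or fewer in every library and was not tested. The cells' mesenchymal markers also moved with treatment. Of 12 markers listed, 8 were tested and all 8 were lower with ATRA, against 38.7% of all tested genes. However, PDGFRB had a log2FC of 0.04 with library size only. The summed level of the 12 was 84808 to 86672 CPM in the control libraries and 4376 to 4684 CPM in the ATRA libraries. ALPL, CORIN, and PROM1, which mark dermal papilla or its precursors, held 3 counts or fewer in every library. SOX2, the remaining marker not tested, went the other way on few reads. It held 5, 0, and 2 counts in the control libraries and 10, 16, and 9 in the ATRA libraries. In bulk RNA, fewer cells of a type and less RNA per cell cannot be told apart. The 4 leukocyte markers measured summed to 9.24 to 12.9 CPM without ATRA and 41.3 to 44.2 CPM with it, mostly CD14 and CD68, while CD3E and CSF1R stayed at 7 counts or fewer. The 5 endothelial markers measured summed to between 0.903 and 1.24 CPM in the control group and between 6.19 and 9.16 CPM with ATRA. This rise came mainly from PECAM1, with CDH5 at 0 or 1 count. TEK had a log2FC of 0.87 and VWF one of 0.06 (adjusted p = 0.909, edgeR). KDR went the other way, from 5, 6, and 10 counts in the control libraries to 2, 1, and 0 in the ATRA libraries. The keratinocyte markers summed to 3.11 to 4.98 CPM without ATRA and 5.37 to 5.97 CPM with it, mostly KRT10. KRT14 went the other way, from 20, 14, and 10 counts to 3, 0, and 0, as did KRT5, from 2, 7, and 3 counts to 0 in each ATRA library. The melanocyte markers, mostly PMEL, summed to 3.80 to 4.30 CPM without ATRA and 1.97 to 2.34 CPM with it. The part of any of these cells in the results below was not tested.

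With ATRA, 5 of the 8 genes were lower and 3 were higher at an adjusted p under 0.05. Among all tested genes 38.7% were lower and 40.9% higher by the same rule, so being called is common in these data. With a fold of more than 2 (an absolute log2FC above 1) as well, 5 were lower and 2 higher, against 17.3% and 13.7% of all tested genes. Over all genes this rule called 2173 lower and 1729 higher, and with library size only 1471 lower and 3389 higher. The genes that fell were HAS2, CEMIP, HMMR, UGDH, and TNFAIP6, and those that rose were HAS3, CD44, and, on fewer reads, HAS1. In 7 of the 8 genes every ATRA library lay on the same side of every control library, which was true of 80.1% of all tested genes. The median log2FC of the 8 genes was -1.999, against 0.04 for all tested genes. Their values ranged from -7.79 for HAS2 to 1.25 for HAS3. The 8 genes were chosen with earlier results of these data known, so these values describe them and do not test the set. The direction of all 8 was the same under every scaling tried.

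**Figure D1:**
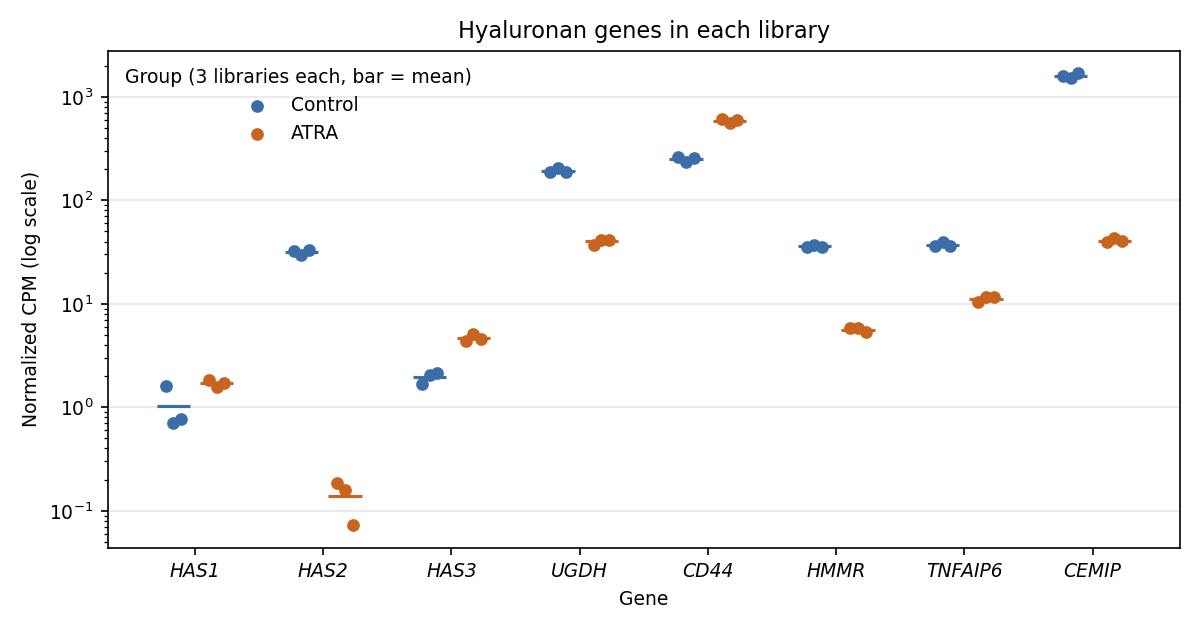
Normalized CPM (log axis) of the 8 hyaluronan genes, with 1 point per library and a bar at the mean of the 3 libraries of a group. HAS2 and CEMIP show the widest separation between control and ATRA libraries, CD44 and HAS3 lie higher with ATRA, and the HAS1 points overlap.

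HAS2 encodes the synthase that makes most of the long hyaluronan in many mesenchymal cells. Its counts in the control libraries were 1015, 953, and 1058, and in the ATRA libraries 8, 7, and 3. These correspond to 32.7, 29.5, and 32.9 CPM without ATRA and 0.185, 0.159, and 0.0725 CPM with it. HAS2 was thus nearly lost from the ATRA libraries, with no overlap. The log2FC was -7.79 (SE 0.173, adjusted p = 7.32e-18, edgeR), a level 221-fold lower, and only 0.342% of all tested genes had a log2FC as low. So few reads were left with ATRA that the size of this fold is uncertain. The SE of 0.173, derived from the F statistic, understates this, and DESeq2 gave an SE of 0.354 for a log2FC of -7.85. The summed counts of 3026 and 18 give a control to ATRA ratio of 227 with a 95% interval of 143 to 383 (exact, counting error only). With a prior count of 2 the log2FC was -7.36, and on log2(CPM + 1), which compresses low levels, it was -4.84.

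HAS3, the synthase usually linked to shorter hyaluronan chains, moved the other way. Control libraries held 52, 67, and 69 counts (1.68, 2.07, and 2.15 CPM) and ATRA libraries 189, 225, and 189 counts (4.37, 5.10, and 4.57 CPM). Every ATRA library lay above every control library. HAS3 rose 2.38-fold (log2FC 1.25, SE 0.169, adjusted p = 2.07e-06, edgeR). On log2(CPM + 1) the log2FC was 0.94, under the fold threshold.

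HAS1, the remaining synthase gene, was measured on the fewest reads of the set. Control libraries held 50, 23, and 25 counts (1.61, 0.711, and 0.778 CPM), and ATRA libraries held 79, 69, and 71 counts (1.83, 1.56, and 1.72 CPM). The first control library lay among the ATRA libraries, and the other two lay below them. The log2FC was 0.72 (SE 0.284, adjusted p = 0.0265, edgeR). This call was fragile. Without Control replicate 1 the log2FC was 1.18 (adjusted p = 0.00162), without Control replicate 2 it was 0.51 (adjusted p = 0.145), and without Control replicate 3 it was 0.55 (adjusted p = 0.118). It was also lost without ATRA replicate 1 (adjusted p = 0.0676) or ATRA replicate 3 (adjusted p = 0.0543), and with DESeq2 (adjusted p = 0.0563). Over all alternatives the adjusted p ranged from 0.000994 to 0.180.

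A share within a library does not depend on scaling between libraries. HAS2 supplied 90.9%, 91.4%, and 91.8% of the reads on the synthase genes in the control libraries and 2.90%, 2.33%, and 1.14% in the ATRA libraries. HAS3 supplied 4.66%, 6.42%, and 5.99% without ATRA and 68.5%, 74.8%, and 71.9% with it. HAS1 went from 2.95% ± 1.32 (SD, n = 3) to 26.2% ± 2.94 (SD, n = 3). The synthase that took most reads therefore changed from HAS2 to HAS3 in each library compared. For each of the 3 shares the groups did not overlap (two-sided exact permutation p = 0.1, which is the lowest value possible with 3 libraries per group). The 3 shares are parts of a whole, so the fall of HAS2 alone raises the others, and they are not separate results. In CPM, HAS1 overlapped between the groups. The shares count reads and not molecules, since transcript lengths were not used. The rise of HAS3 and HAS1 was small beside the loss of HAS2. Summed over the synthase genes, the level was 34.7 ± 2.13 CPM without ATRA and 6.52 ± 0.262 CPM with it (SD, n = 3 each), 5.32-fold lower.

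**Figure D2:**
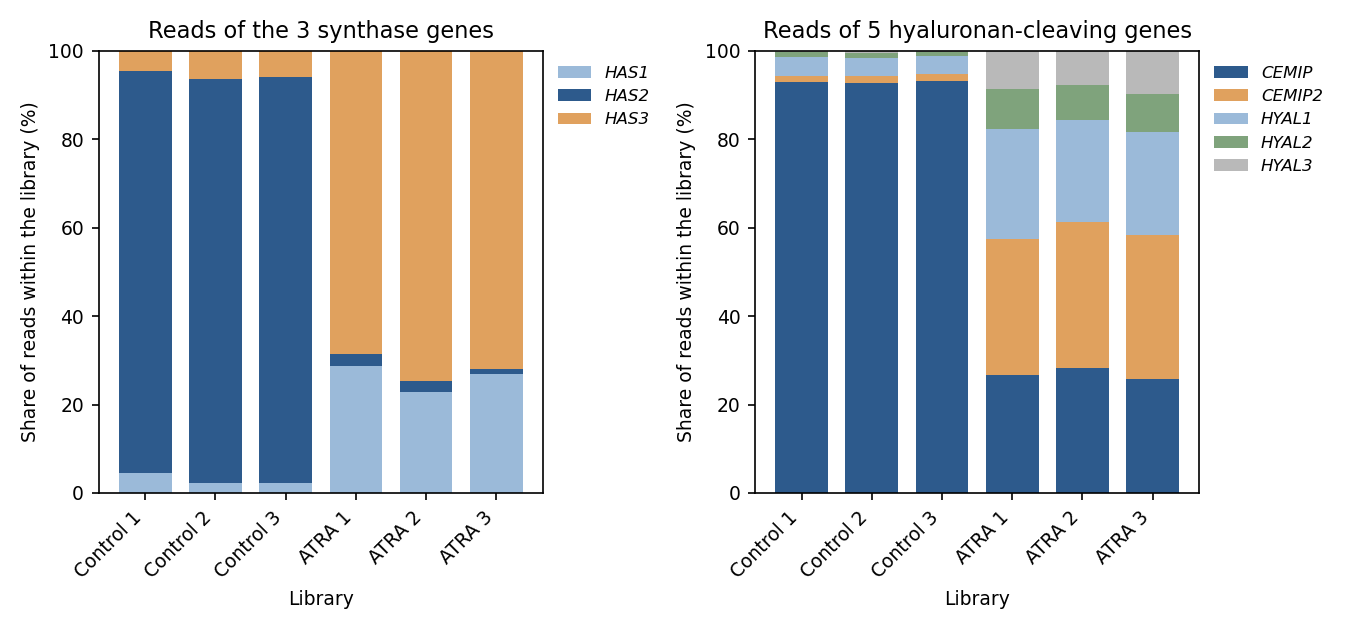
Share of reads (%) within each library, for the 3 synthase genes (left) and for 5 hyaluronan-cleaving genes (right), with 1 stacked bar per library. HAS2 fills over 90% of the synthase reads in the control libraries and under 3% in the ATRA libraries, and CEMIP fills over 92% of the cleaving reads without ATRA and under 29% with it.

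UGDH oxidizes UDP-glucose to UDP-glucuronic acid, the sugar that hyaluronan shares with other glycosaminoglycans. Its counts were 5770, 6672, and 6023 in the control libraries and 1610, 1833, and 1725 in the ATRA libraries. The corresponding levels were 186, 206, and 188 CPM without ATRA and 37.2, 41.6, and 41.7 CPM with it. No library of a group came near the other group. UGDH fell 4.81-fold (log2FC -2.27, SE 0.0665, adjusted p = 4.62e-16, edgeR).

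Other enzymes that make or use sugar nucleotides or their precursors moved in both directions. Of 12 such enzymes listed other than UGDH, all were tested, with 3 higher, 6 lower, and 3 not called, and a median log2FC of -0.18. The 6 lower include UXS1, GNPDA1, and GNPDA2, which use these sugars or precursors, so the count is not one of supply alone. By the same rule 40.9% of all tested genes were higher and 38.7% lower. UAP1, which makes UDP-N-acetylglucosamine, rose from 42.2 ± 3.41 CPM (SD, n = 3) to 443 ± 2.54 CPM (SD, n = 3). Its log2FC of 3.39 (SE 0.0663, adjusted p = 1.29e-18, edgeR) was reached or exceeded by 2.20% of all tested genes. UAP1 was the only gene of the 12 past the fold threshold. Upstream in the hexosamine pathway, PGM3 had a log2FC of 0.38 and GFPT1, its first enzyme, one of 0.54, while GFPT2 had -0.61 and GNPNAT1 had -0.34, which turned to 0.14 with library size only. UXS1, which diverts UDP-glucuronic acid to UDP-xylose, had a log2FC of -0.73. UGP2, which makes UDP-glucose, had a log2FC of -0.20, which turned to 0.28 with library size only. PGM1, NAGK, and UAP1L1 were not called, with log2FC of 0.11 (SE 0.0610), -0.17 (SE 0.0884), and -0.0106 (SE 0.0728), the latter pair above 0 with library size only.

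Within each library, the log2 ratio of UAP1 to UGDH counts was -2.09, -2.21, and -2.29 without ATRA and 3.58, 3.40, and 3.41 with it. This pair was chosen after its values were seen and is given as a description of these 2 genes, with no test.

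CEMIP encodes a secreted protein that binds hyaluronan and is needed for its breakdown by skin fibroblasts. It was among the well-read genes of the control group, with 49171, 49432, and 54181 counts, and held 1693, 1906, and 1656 counts in the ATRA libraries. It took 0.136% ± 0.00684 of all counts without ATRA and 0.00482% ± 0.000306 with it (SD, n = 3 each). Levels were 1584, 1528, and 1687 CPM without ATRA and 39.2, 43.2, and 40.0 CPM with it. CEMIP fell 39.2-fold (log2FC -5.29, SE 0.0733, adjusted p = 1.84e-20, edgeR), and 1.34% of all tested genes had a log2FC as low.

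CEMIP2, listed in the table under its older name TMEM2, encodes a related membrane protein described as a cell-surface hyaluronidase. Control libraries held 757, 847, and 933 counts and ATRA libraries 1958, 2229, and 2085 counts. It rose from 26.5 ± 2.35 CPM (SD, n = 3) to 48.7 ± 2.98 CPM (SD, n = 3), a log2FC of 0.88 (SE 0.0793, adjusted p = 9.52e-09, edgeR). The paralogs therefore changed in opposite directions. Of the 9 listed genes of hyaluronan degradation other than CEMIP, 7 were tested, with 2 higher and 5 lower, and a median log2FC of -0.97. All tested genes were 40.9% higher and 38.7% lower by the same rule. The hyaluronidase gene HYAL3 rose with a log2FC of 0.996 (SE 0.126), and HYAL1 fell by 0.97 (SE 0.0637) on the log2 scale. HYAL2 had a log2FC of -0.47 (SE 0.0888), which was 0.00513 with library size only. The lysosomal enzyme genes that remove single sugars from hyaluronan fragments included GUSB and HEXA, which fell with log2FC of -1.02 and -0.98. GUSB has another row of the same name under a LOC number, so its counts are uncertain.

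Among the reads on CEMIP, CEMIP2, HYAL1, HYAL2, and HYAL3, a set put together after the values were seen, CEMIP took 92.9% ± 0.245 without ATRA and 26.9% ± 1.24 with it (SD, n = 3 each). CEMIP2 took 1.54% ± 0.0968 without ATRA and 32.1% ± 1.21 with it, and HYAL1 4.09% ± 0.182 and 23.7% ± 1.05 (SD, n = 3 each). CEMIP thus held most of these reads without ATRA, and no single gene did with it. Their summed level was 1721 ± 81.9 CPM without ATRA and 152 ± 3.90 CPM with it (SD, n = 3 each).

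CD44 encodes the main cell-surface receptor for hyaluronan. Its counts were 8191, 7509, and 8184 in the control libraries and 26317, 24737, and 24620 in the ATRA libraries, or 264, 232, and 255 CPM against 609, 561, and 595 CPM. The groups lay far apart, with each ATRA library more than 2 times the highest control library. CD44 rose 2.35-fold (log2FC 1.23, SE 0.0623, adjusted p = 1.68e-12, edgeR). It is made by many cell types, among them leukocytes. Of the leukocyte markers, CD14 and CD68 had log2FC of 2.18 and 1.41 here, while CD3E and CSF1R held 7 counts or fewer in every library. The part of such cells in the CD44 result was not tested. The counts are per gene and carry no information on CD44 splice forms.

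The proteins that connect CD44 to the cortex or cut it were examined as a list of 12, of which 11 were tested, with 4 higher and 7 lower. For all tested genes the shares were 40.9% higher and 38.7% lower. The linkers of CD44 to actin fell while the receptor rose. EZR (ezrin) fell from 412 ± 7.24 to 152 ± 4.98 CPM, MSN (moesin) from 2111 ± 31.2 to 425 ± 32.0 CPM, and RDX (radixin) from 135 ± 6.08 to 79.8 ± 8.23 CPM (SD, n = 3 each). NF2 (merlin), which competes for the same receptor tail, had a log2FC of 0.53. Of the proteases that shed or cleave CD44, ADAM10 and ADAM17 rose, with log2FC of 0.30 and 0.69, and MMP14 had -0.62. SPP1 (osteopontin), another ligand of CD44, fell by 2.38 on the log2 scale. The epithelial splicing factor gene ESRP1 held 6 counts or fewer in every library, and ESRP2 had a log2FC of -0.96. Another hyaluronan receptor gene, LAYN, rose on few reads, from 13 to 22 counts per control library to 39 to 59 counts per ATRA library (log2FC 1.08, SE 0.316, adjusted p = 0.00456, edgeR). LYVE1, the receptor of lymphatic endothelium, held 10 counts or fewer in every library and was not tested.

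HMMR encodes RHAMM, which binds hyaluronan outside the cell and microtubules of the mitotic spindle inside it. Control libraries held 1096, 1189, and 1137 counts (35.3, 36.8, and 35.4 CPM) and ATRA libraries 250, 256, and 220 counts (5.78, 5.80, and 5.32 CPM). These were the tightest control values of the 8 genes, with a coefficient of variation of 2.27%. HMMR fell 6.35-fold (log2FC -2.67, SE 0.0865, adjusted p = 2.04e-15, edgeR). Although both are classed as hyaluronan receptors, HMMR and CD44 changed in opposite directions. Their log2 ratio, CD44 over HMMR, was 2.80 ± 0.128 without ATRA and 6.71 ± 0.106 with it (SD, n = 3 each), a pair chosen after its values were seen.

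Genes that work with HMMR in dividing cells fell beside it. All 6 listed spindle partners were lower with ATRA past the fold threshold, with a median log2FC of -3.91 and a range from -5.27 for KIF11 to -2.04 for BARD1. Past this threshold 17.3% of all tested genes were lower. TPX2, which recruits the kinase Aurora A to the spindle, had a log2FC of -3.11, the kinase gene AURKA -5.11, and BRCA1 -2.65. All 10 proliferation markers were lower as well, with a median of -4.17, from MKI67 at -10.31 to PCNA at -1.50. The value of HMMR lay inside the range of both lists. The part of the fall in dividing cells in the HMMR result was not tested.

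TNFAIP6 encodes TSG-6, a secreted protein that binds hyaluronan and transfers heavy chains of inter-alpha-inhibitor onto it. Its counts were 1126, 1266, and 1162 in the control libraries and 446, 514, and 481 in the ATRA libraries. Levels went from 36.3, 39.1, and 36.2 CPM to 10.3, 11.7, and 11.6 CPM, with no overlap. TNFAIP6 fell 3.32-fold (log2FC -1.73, SE 0.0828, adjusted p = 7.21e-13, edgeR), the smallest of the 5 decreases. Its partners were scarce. ITIH4, a family member of the heavy chain genes, held 3 to 11 counts per control library and 36 to 60 counts per ATRA library (log2FC 2.33, SE 0.399). PTX3, which joins TNFAIP6 in cross-linking hyaluronan, held 2 to 6 and 10 to 19 counts (log2FC 1.52, SE 0.530, adjusted p = 0.0142, edgeR), a call that was lost with DESeq2 (adjusted p = 0.0629) and t.test (adjusted p = 0.0667), without Control replicate 1 (adjusted p = 0.0753), and without ATRA replicate 3 (adjusted p = 0.0558). ITIH2 and ITIH3 held 3 counts or fewer in every library.

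Among the matrix proteins that bind hyaluronan, the 2 most-read genes fell. VCAN (versican) fell from 1641 ± 63.6 to 32.4 ± 3.11 CPM (SD, n = 3 each), with 49880, 51798, and 55062 counts in the control libraries and 1281, 1578, and 1319 in the ATRA libraries (log2FC -5.66, SE 0.0813). HAPLN3, a link protein that fastens proteoglycans to hyaluronan, fell from 74.5 ± 1.47 to 11.4 ± 0.270 CPM (SD, n = 3 each, log2FC -2.71, SE 0.0712). Of the 8 listed genes of this kind, 4 were tested. The others called were HAPLN4, with a log2FC of 0.57 (SE 0.126), and BCAN, with -0.76 (SE 0.239) and an adjusted p of 0.276 with library size only and 0.0588 with t.test. HAPLN1, HAPLN2, ACAN, and NCAN held 9 counts or fewer in every library. The log2FC of CEMIP and VCAN were -5.29 and -5.66, and that of COL1A1, a general fibroblast collagen gene, was -5.62. The 8 tested mesenchymal markers, COL1A1 among them, ranged from -9.62 for ACTA2 to -0.44 for PDGFRB, with a median of -4.02.

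Over all 40 pathway genes listed beside the 8, 26 were tested, 9 were higher, 14 were lower, and 3 were not called, with a median log2FC of -0.21. Past the fold threshold, 4 were higher and 4 lower. This split depends on the scaling, since with library size only 14 were called higher and 7 lower, and past the fold threshold 8 and 2. The 26 values ranged from -5.66 for VCAN to 3.39 for UAP1, and 23 of them were called. Among all tested genes 40.9% were called higher and 38.7% lower, and past the fold threshold 13.7% and 17.3%.

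**Figure D3:**
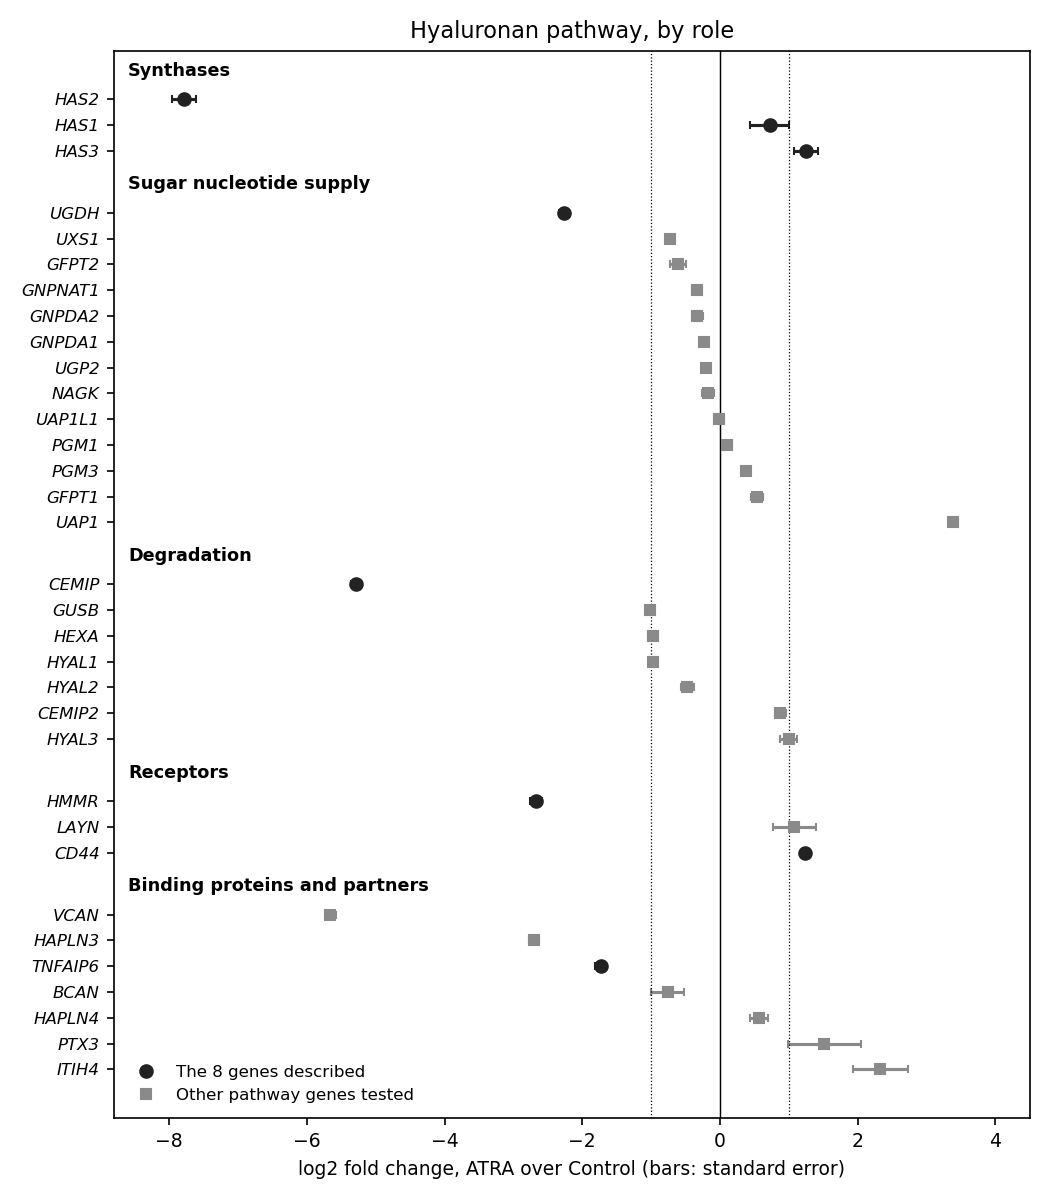
Log2FC of the 8 hyaluronan genes (circles) and 25 of the 26 other pathway genes tested (squares), grouped by role, with bars for the standard error and dotted lines at an absolute log2FC of 1. Each role holds genes on both sides of 0, with HAS2, VCAN, and CEMIP farthest to the left and UAP1 farthest to the right.

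Because the design has 2 conditions, the profile of a gene over the 6 libraries is set mostly by its fold change. The genes with the nearest profiles, by Euclidean distance of centred log2 CPM over 6 libraries, were ECM2, RAD51AP1, and CDCA2 for HAS2 (distances 0.335, 0.387, and 0.547). For CD44 they were BRD2, SLC26A6, and HOXA6 (0.0667, 0.0723, and 0.0731). For HMMR they were RDH10, FAM46A, and CORO1C (0.0911, 0.0979, and 0.106).

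**Figure D4:**
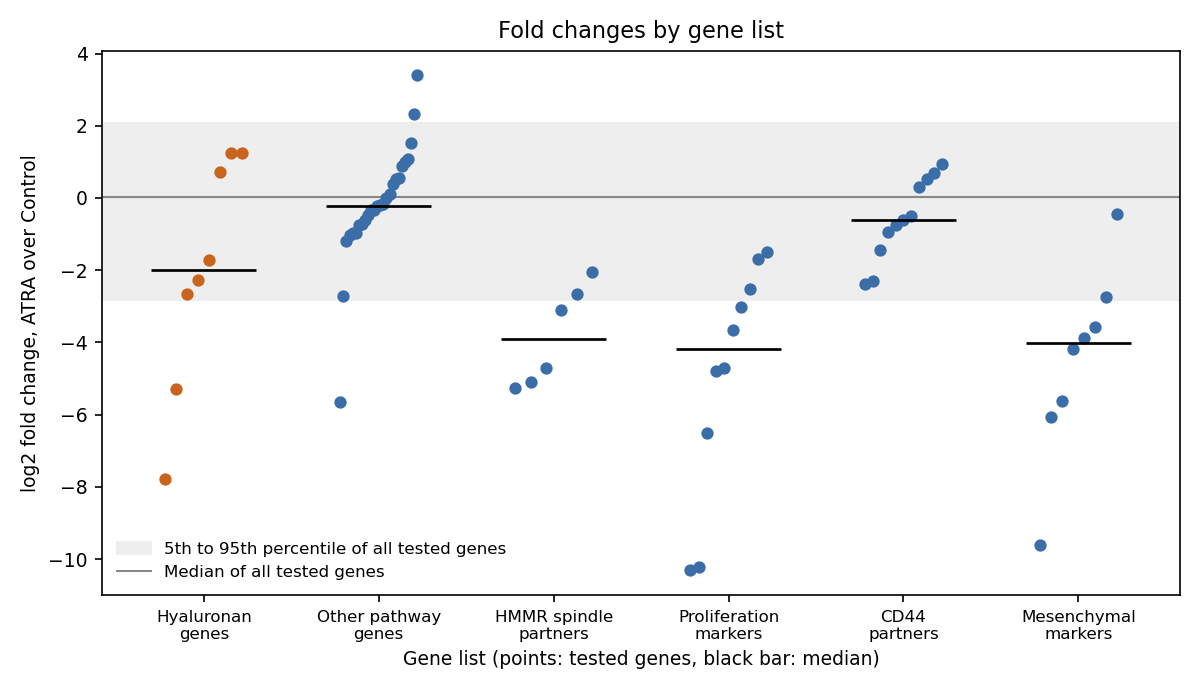
Log2FC of the tested genes of 6 lists (points) with the list median (black bar), over the 5th to 95th percentile of all tested genes (grey, -2.83 to 2.09). HAS2 and CEMIP lie below the grey band, the 3 hyaluronan genes that rose lie inside it, and the spindle, proliferation, and mesenchymal lists lie wholly below 0, except that PDGFRB of the last list would be at 0.04 with library size only.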

How the data were processed

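RNA-seq was available for 3 control and 3 ATRA libraries, each a separate column of whole-number counts per gene that the authors deposited without normalization. Per the labels, libraries were poly(A)-enriched, all 6 belong to batch 1, and the submitters' processing notes name HISAT2, featureCounts, and DESeq2. The paper's methods name fastp and TrimGalore. The genome build, annotation, and strand setting are not given in the sources used here, so no coordinates or sequences are shown. The control cells received medium without ATRA. The methods state cells from 3 animals but not which libraries share an animal.

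Genes were filtered by edgeR's expression filter (12588 kept), given TMM factors, and compared by quasi-likelihood in edgeR (robust, no covariate) with Benjamini-Hochberg adjustment. As the values are counts, the t.test of the study's methods served as an alternative. The log2FC uses a prior count of 0.125. A call is an adjusted p under 0.05, and the fold threshold is an absolute log2FC above 1. The 8 genes and the lists were chosen with earlier results of these data known. Named genes are the 8 genes and members of the lists, those called with an absolute log2FC above 1 and a mean CPM of at least 1 first, and the 3 genes not under a LOC number with profiles nearest to HAS2, CD44, and HMMR. List genes were matched by row name, or by a unique symbol in the annotation. No other gene of the ARS1.2 reference overlaps any of the 8. STAB1 matched 3 rows and was not used in the pathway list, and HYAL4, STAB2, ITIH1, ITIH5, and AMBP were not analysed here. Single values of 2 list genes are not reported here. SPAM1 held 4 counts or fewer and was not tested. Libraries of a group differed by more than sampling noise (chi-square over its degrees of freedom 5.01 to 18.4). The fit was run on simulated data in which 200 of 12588 genes were changed. There edgeR recovered 197 of them and called 24 unchanged genes. Far more genes were called in the real data (10028), so the simulation does not test the scaling between groups. Alternatives were RLE, upper-quartile, and library-size scaling, DESeq2, t.test on log2(CPM + 1), 2 other filters, a prior count of 2, a replicate block, and each library left out. Software versions were R 4.3.3, edgeR 4.0.16, DESeq2 1.42.0, Python 3.11.15, scipy 1.17.1, and matplotlib 3.10.9.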

Additional observations from a re-analysis of the deposited data

How the results depend on the processing

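Under 15 alternatives, 7 of the 8 hyaluronan genes kept their direction and an adjusted p under 0.05. HAS1 kept its direction, and its adjusted p rose above 0.05 in 6 of them, with a log2FC of 0.702 with DESeq2, 0.437 with t.test on log2(CPM + 1), and from 0.508 to 1.18 with each library left out in turn. With t.test, 1 hyaluronan gene was higher past the fold threshold, and 1 pathway gene. With library size only, the other pathway genes called were 14 higher and 7 lower, and past the fold threshold 8 higher and 2 lower. Library size only also turned the log2FC of UGP2 to 0.282, HYAL2 to 0.00513, GNPNAT1 to 0.143, NAGK to 0.310, UAP1L1 to 0.467, PDGFRB to 0.0357, and C1QBP to 0.0338. UAP1L1, which was not called and lay near 0, was also 0.0660 with upper-quartile scaling and 0.00232 with a minimum of 1 CPM in 3 libraries, and from -0.0614 to 0.0384 with each library left out. Among 51 other named genes, 737 of 763 values kept their direction and side of the threshold, 12 lost a call, 3 gained one, and these 11 turned. The correlations of same-numbered deviations were 0.0457, 0.0241, and -0.0463, and those of differently numbered ones ranged from -0.0743 to 0.0441. These values gave no sign of pairing by number. With 3 libraries per group they do not exclude that same-numbered libraries share an animal. With the replicate number as a block, 9992 genes were called against 10028, the log2FC of HAS1 was 0.766, and no call on the 8 genes changed. Reads per length were not computed, because transcript lengths were not used here. Depth limits HAS1 and HAS2, with 3 to 8 counts per ATRA library for HAS2, and the p-values cover 3 libraries per group.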

Other observations

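The GO annotation in the deposited table gives a list of hyaluronan genes that was not written by hand. Any of 6 hyaluronan terms was carried by 30 genes, of which 22 were tested, 10 were higher, 12 were lower, and the median log2FC was -0.46, where 40.9% of all tested genes were higher and 38.7% lower. Hyaluronic acid binding was the term with most members, with 4 of 14 tested genes higher and 10 lower (median log2FC -0.94). Apart from the genes already described, the annotation adds 5 tested genes, 2 higher and 3 lower. Those higher were TGFB1, a growth factor annotated to hyaluronan catabolism, with a log2FC of 2.12 (SE 0.0682), and IMPG2, a hyaluronan-binding proteoglycan of the retina, which went from 0.418 ± 0.0568 to 1.54 ± 0.518 CPM (SD, n = 3 each, log2FC 1.87, SE 0.331). The call of IMPG2 was lost with t.test (adjusted p = 0.0575). Those lower were 2 rows annotated as STAB1, a scavenger receptor, LOC102172305 with a log2FC of -3.09 (SE 0.520) and LOC108638604 with -1.12 (SE 0.259), and C1QBP. Reads of near-identical copies could be split between the STAB1 rows, so their values are uncertain. C1QBP had a log2FC of -0.44 (SE 0.0723), which was 0.03 with library size only.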
